A study of Rattus norvegicus with 13 samples.

Results

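A set of 9 myelin genes was followed over 13 brain arrays of aged rats, and every probe set whose only gene in the platform annotation was 1 of these 9 was taken: Mbp, Mog, Mag, Mobp, Cnp, Mal, Fa2h, Gjb1 and Ugt8. They had 10 probe sets, 2 for Mbp and 1 for each other gene, of 15310 probe sets with a single gene and 14506 genes in all. Each probe set sums up several short probes in 1 log2 signal, and signals of different probe sets cannot be set against each other as levels. The samples were the brain without the cerebellum of male Fischer F344 rats aged 15 months. In the control group (7 arrays) the mothers ate a control diet and in the fructose group (6 arrays) a high fructose diet, from day 1 of gestation through lactation. All offspring were weaned to chow on day 20. The labels do not give litters or say that each array was a separate animal, so each p-value reflects only how far these samples scatter, which may in part be technical.

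Myelin is the stack of membrane that oligodendrocytes wrap around axons in the brain. It is unusually rich in lipid, above all cholesterol and the galactolipids made from ceramide, and it is held compact by a small set of abundant proteins. Oligodendrocyte precursors carry few of these transcripts, and the genes are switched on together as the cells mature under transcription factors such as SOX10 and MYRF. In whole tissue, fewer oligodendrocytes and less myelin RNA per cell cannot be told apart.

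The main pattern was between individual arrays and not between the diets. Of the 9 genes 8 were high or low together in the same arrays, with a range of 1.57-fold (Cnp) to 2.13-fold (Mobp) from the lowest to the highest array. Between the diets 0 of the 10 probe sets passed limma's test at an adjusted p of 0.05, and 0% of all 15633 probe sets with a gene did. The mean of the 9 genes, each by its probe set of highest mean signal, was lowest in control replicates 5, 4 and 7 (9.54, 9.55 and 9.58) and fructose replicate 7 (9.60). It was highest in fructose replicate 1 (10.22), control replicate 3 (10.20), control replicate 8 (10.06) and control replicate 2 (10.05). Both ends of the range thus held arrays of both diets, and the values in between were spread without a wide gap between arrays. Fructose replicate 1 was among the 4 highest arrays for all 9 genes and control replicate 3 for 8 of them. Array medians over all probe sets with a gene lay between 7.99 and 8.07. The interquartile range of the array, a measure of how wide its signals were spread, had r = -0.17 with the mean of the 9 genes, and it was smallest in control replicates 2 and 1 (2.15 and 2.19, others 2.26 to 2.50), whose means of the 9 genes were 10.05 and 9.75. Its r was -0.12 over the control and -0.44 over the fructose arrays. For the array median, r was 0.04 over the control and -0.48 over the fructose arrays. The part of these array measures in the pattern was not tested.

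**Figure D1:**
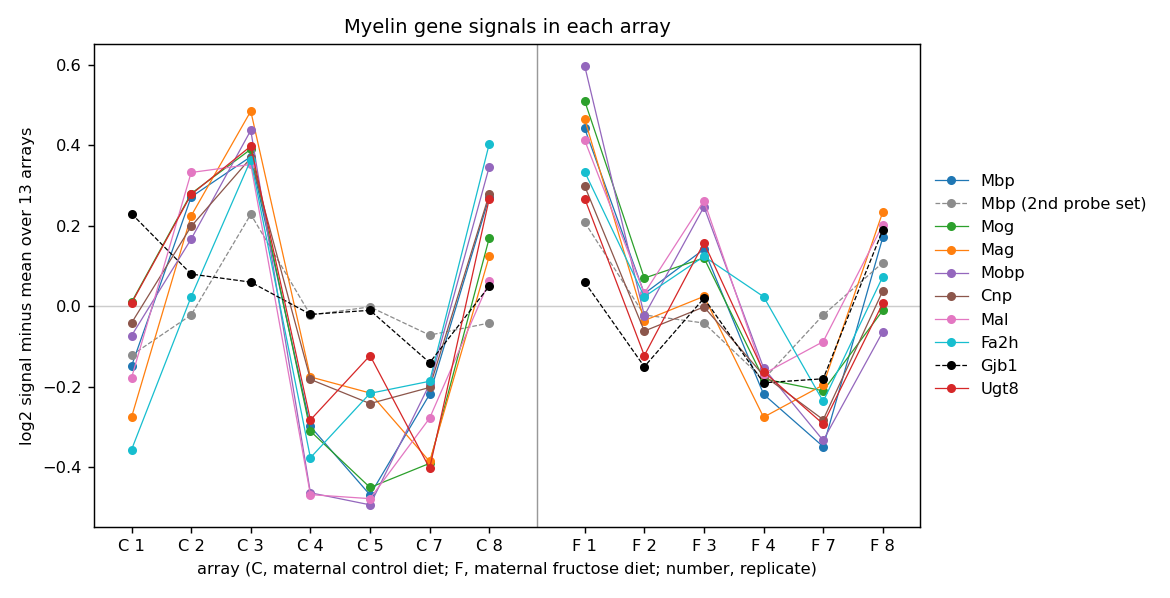
Log2 signal of each of the 10 myelin probe sets minus its mean over the 13 arrays (y axis), for each array (x axis; C, maternal control diet, 7 arrays; F, maternal fructose diet, 6 arrays). Lines only join the points of 1 probe set and mark no order; most genes are high together in C 3 and F 1 and low together in C 4, C 5, C 7 and F 7, while Gjb1 and the second Mbp probe set (dashed) move over a smaller range.

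Among the structural proteins, Mbp encodes myelin basic protein, which binds the cytoplasmic faces of the membrane together. Its probe set of higher signal had a lowest, median and highest value of 11.26, 11.58 and 12.10 in the control group and 11.38, 11.81 and 12.17 in the fructose group. Control replicate 5 was lowest and fructose replicate 1 highest, a 1.87-fold range, and the groups overlapped over most of it. Mobp, a second small basic protein of compact myelin, ran through 10.20, 10.62 and 11.13 in control and 10.36, 10.65 and 11.29 in fructose arrays, the widest range of the 9 genes (2.13-fold), between the same lowest and highest arrays as Mbp. Mal, a proteolipid of membrane sorting in myelin-forming cells, ran through 9.66, 9.96 and 10.49 in control and 9.97, 10.26 and 10.55 in fructose arrays, and again control replicate 5 was lowest and fructose replicate 1 highest.

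Mog and Mag are immunoglobulin-like proteins of the outer and the innermost myelin surface. Mog signals were 9.89, 10.35 and 10.73 (lowest, median, highest) in control and 10.13, 10.37 and 10.85 in fructose arrays, a 1.95-fold range over all arrays. Mag signals were 9.52, 9.73 and 10.39 in control and 9.63, 9.90 and 10.37 in fructose arrays, with control replicate 7 lowest and control replicate 3 highest. Cnp, an enzyme that keeps cytoplasmic channels in myelin open and is used as an early marker of the oligodendrocyte, had signals of 10.28, 10.48 and 10.89 in control and 10.24, 10.49 and 10.82 in fructose arrays. Its range, 1.57-fold, was the narrowest among these structural genes.

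Fa2h and Ugt8 work in 1 lipid pathway: Fa2h hydroxylates the fatty acid and Ugt8 adds galactose to ceramide to make the galactolipids of myelin. Fa2h signals were 8.36, 8.55 and 9.14 in control and 8.50, 8.79 and 9.07 in fructose arrays, highest in control replicate 8 and lowest in control replicate 4. Ugt8 signals were 8.59, 9.004 and 9.39 in control and 8.70, 8.94 and 9.26 in fructose arrays, highest in control replicate 3 and lowest in control replicate 7. Gjb1 encodes a connexin that forms gap junctions between layers of myelin and between glial cells. Its signals were 7.38, 7.57 and 7.75 in control and 7.33, 7.46 and 7.71 in fructose arrays, a 1.34-fold range with control replicate 1 highest and fructose replicate 4 lowest.

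Because most members were high or low together, the start regions of 4 of them are printed: Mag, Mobp and Cnp, from genes that varied together, and Gjb1, which varied with them less closely. RefSeq promoter entries on build GRCr8 were matched for 8 of the 9 genes (9 starts, 2 of them of Mbp). The 250 bases before each start are shown 5′ to 3′ on the strand of the gene. Capitals mark matches on either strand to 6 motifs searched by their letters: AACAAT and ACAAAG, core letters bound by SOX proteins, CTGGCAC and CTGGTAC, bound by MYRF, the GC box GGGCGG, and the TATA box letters TATAAA. No matches overlapped.
Mag, chr1:95291045-95291294, minus strand: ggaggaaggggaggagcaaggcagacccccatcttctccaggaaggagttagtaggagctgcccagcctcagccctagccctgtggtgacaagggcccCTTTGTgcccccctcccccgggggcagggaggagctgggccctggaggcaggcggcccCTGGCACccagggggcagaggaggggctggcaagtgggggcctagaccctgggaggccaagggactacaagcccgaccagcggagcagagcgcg
Mobp, chr8:128746982-128747231, plus strand: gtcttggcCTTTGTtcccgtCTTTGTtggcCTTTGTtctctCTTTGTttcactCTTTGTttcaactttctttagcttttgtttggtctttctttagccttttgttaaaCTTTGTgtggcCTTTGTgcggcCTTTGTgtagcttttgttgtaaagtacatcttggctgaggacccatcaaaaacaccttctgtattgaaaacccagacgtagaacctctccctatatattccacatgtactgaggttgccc
Cnp, chr10:86011254-86011503, plus strand: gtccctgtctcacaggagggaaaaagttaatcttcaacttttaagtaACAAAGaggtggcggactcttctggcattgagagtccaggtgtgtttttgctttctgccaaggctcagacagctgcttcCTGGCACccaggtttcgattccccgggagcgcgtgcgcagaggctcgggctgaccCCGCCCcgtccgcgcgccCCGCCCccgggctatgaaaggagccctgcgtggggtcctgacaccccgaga
Gjb1, chrX:70541595-70541844, plus strand: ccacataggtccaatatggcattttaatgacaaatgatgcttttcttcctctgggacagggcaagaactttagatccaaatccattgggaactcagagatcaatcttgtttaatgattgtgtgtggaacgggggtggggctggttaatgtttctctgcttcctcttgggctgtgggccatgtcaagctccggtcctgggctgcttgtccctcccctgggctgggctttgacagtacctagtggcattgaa

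Mobp held 8 matches to ACAAAG, all on the opposite strand, between 242 and 115 bases before its start. Mag and Cnp each held 1 match to ACAAAG and 1 to CTGGCAC, and the Gjb1 window held none of the 6 motifs. The Fa2h window also held none of the 6, and the Ugt8 window held only GC boxes. Both of these genes varied closely with the others (r with the mean of the other 8 genes, 0.84 and 0.92). Over the 9 member windows, 4 held ACAAAG, where 16.3% of all 33469 promoter windows of this length do, and 3 (Mag, Cnp and Mal) held CTGGCAC, where 3.78% do. AACAAT was in 1 (10.3% of all windows), GGGCGG in 5 (30.5%), and CTGGTAC and TATAAA in 0 (1.78% and 12.9%). The windows differed in composition: the G and C content was 41.6% in Mobp, 49.2% in Gjb1, 74.4% in Fa2h and 81.2% in Ugt8, against a median of 51.2% of all windows. Letters that match a motif describe the sequence and do not show that a factor binds there.

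The spread within the diet groups was wide for these genes compared with other probe sets. The residual SD of the limma fit was 0.23 for Cnp and 0.35 for Mobp, and 0.27 to 0.31 for Mag, Mog, Mal, Fa2h, Ugt8 and the main Mbp probe set. These lay at percentiles 93.5 to 98.1 of all 15633 probe sets tested, and at percentiles 92.3 to 98.1 of the 1563 probe sets nearest to each in mean signal. Gjb1, at 0.13, lay at percentile 64.1 and the second Mbp probe set, at 0.12, at percentile 56.0.

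The 36 pairs of genes were compared over the 13 arrays with Pearson's r and Spearman's rho. In the 28 pairs without Gjb1, r ran from 0.78 (Mog with Fa2h) to 0.95 (Mbp with Cnp) with a median of 0.87, and all 28 passed an adjusted p of 0.05 in a permutation test of 100000 resamples, with Benjamini-Hochberg adjustment over the 36 pairs. The genes were chosen with earlier results of these data known, so the permutation p-values are a description and no independent support. For Mbp with Mog, r was 0.94 and rho 0.94, with a permutation p of 1e-05, the smallest these resamples can give, and an adjusted p of 5.14e-05. For Mbp with Mobp r was 0.95 and rho 0.97, and for the lipid enzymes Fa2h and Ugt8 with each other r was 0.79 and rho 0.72 (adjusted permutation p = 0.00259 and 0.0086). The pairing of an enzyme with a structural gene was as close as that between structural genes for Cnp with Ugt8 (r = 0.94, rho = 0.93). The relations were present within each diet: the median r of the 28 pairs was 0.89 over the control arrays (range 0.73 to 0.98) and 0.93 over the fructose arrays (0.81 to 0.98). When the 2 arrays farthest from the median of the first gene of a pair were left out, the 28 values ran from 0.64 (Mag with Mobp) to 0.96 (Mog with Ugt8) with a median of 0.84.

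**Figure D2:**
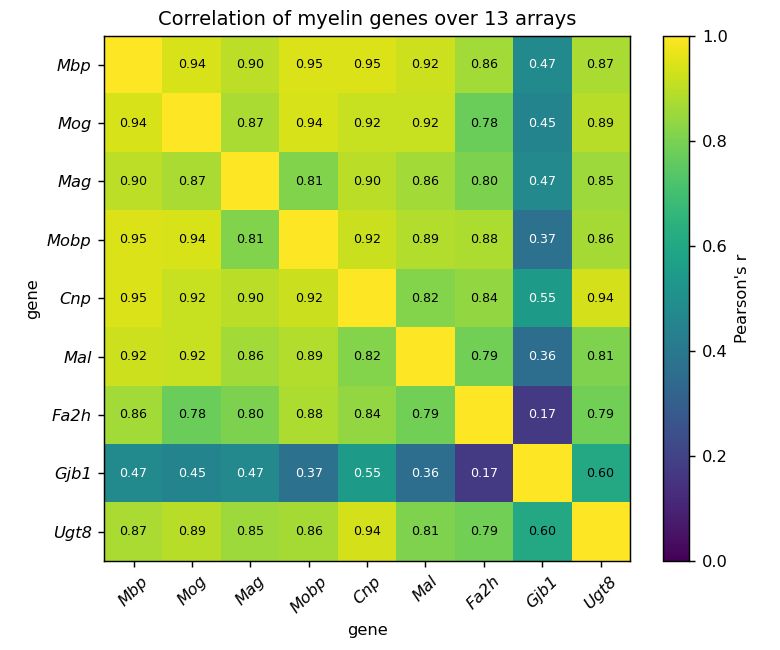
Pearson's r between the log2 signals of each pair of the 9 myelin genes over the 13 arrays, by the probe set of highest mean for each gene; both axes list the genes and the colour scale runs from 0 to 1. Every pair without Gjb1 is at 0.78 or higher, and the pairs with Gjb1 lie between 0.17 and 0.60.

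Gjb1 followed the others less closely in these arrays. Its r with the other genes ran from 0.17 (Fa2h) to 0.60 (Ugt8) with a median of 0.46, and 1 of the 8 pairs passed by Pearson's r in the permutation test (Ugt8, adjusted p = 0.0386) and 3 by Spearman's rho (Ugt8, adjusted p = 0.0113; Cnp, 0.0181; Mbp, 0.0426). Its r with the mean of the other 8 genes was 0.45 over all arrays, 0.39 over the control and 0.71 over the fructose arrays. Control replicate 1, where Gjb1 was at its highest (7.75) while the mean of the 9 genes was 9.75, moved this value most, and without it r was 0.62, still below the 0.84 to 0.98 of the other 8 genes over all arrays. Whether the difference between Gjb1 and the other genes exceeds chance was not tested. On the mean of the other 8 genes, the slope was 0.22 for Gjb1 (log2 units per log2 unit), 0.85 for Cnp, 0.90 for Fa2h, 0.96 for Ugt8 and 1.07 to 1.36 for Mag, Mal, Mog, Mbp and Mobp. On the first principal component of the 9 genes lay 87.5% of their variance in log2 values, where genes of wide range weigh most. With each gene scaled to the same spread it was 81.7%.

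The 2 probe sets of Mbp did not move alike. The second had a mean signal of 8.95 and ran through 8.83, 8.93 and 9.18 (lowest, median, highest) in control and 8.77, 8.93 and 9.16 in fructose arrays. Its range over all arrays was 1.33-fold, against 1.87-fold for the main probe set, and its slope on the main probe set was 0.24. Over the 13 arrays r between them was 0.62 (permutation p = 0.0227) and rho was 0.38 (permutation p = 0.199), with r = 0.49 over the control and 0.79 over the fructose arrays, and 0.60 without control replicate 5 and fructose replicate 1, the 2 arrays farthest from the median. The main probe set had r = 0.98 with the mean of the other 8 genes and the second 0.66. The Mbp gene has a far upstream start that gives the golli transcripts and a downstream start that gives classic myelin basic protein. Which of these transcripts each probe set measures was not tested.

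**Figure D3:**
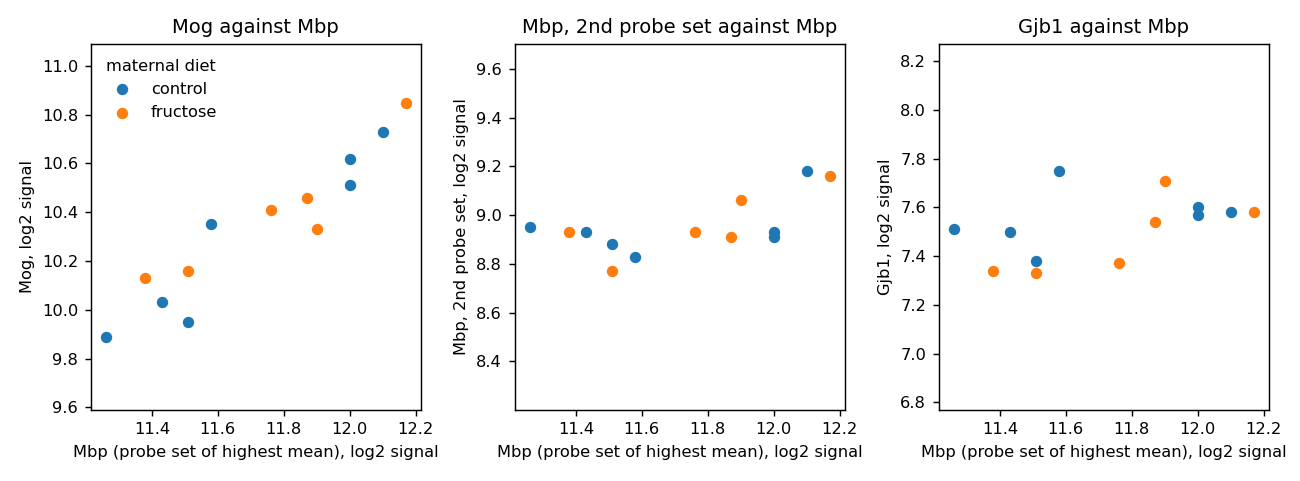
Log2 signal of Mog, of the second Mbp probe set and of Gjb1 (y axes, of equal height in log2 units) against that of the Mbp probe set of highest mean (x axes) in the 13 arrays, coloured by maternal diet. Mog rises along with Mbp (r = 0.94), the second Mbp probe set less closely (r = 0.62) and Gjb1 least (r = 0.47), and the points of both diets lie along the same trend in the Mog panel.

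Other genes were compared with the mean of the 9 by Pearson's r over the 13 arrays after removal of each diet group's mean. These values are a description, since all points share the same arrays. Among 15300 probe sets of other genes the median r was -0.02, with 85 (0.556%) over 0.8 and 10 (0.0654%) under -0.8. The 10 closest were Ermn (0.99), which encodes the cytoskeletal protein ermin of mature oligodendrocytes, Hapln2 (0.97), a matrix link protein of nodes of Ranvier, the iron carrier Tf (0.97), Ninj2 (0.95), the myelin tight junction gene Cldn11 (0.95), the lysophosphatidic acid receptor Lpar1 (0.95), the sphingosine 1-phosphate receptor S1pr5 (0.95), Evi2a (0.95), the lipid carrier Apod (0.95) and Opalin (0.94), a membrane protein of oligodendrocytes. Their signals ranged over 1.59-fold (Ninj2) to 2.04-fold (Opalin), much as those of the members did. The 5 genes that ran most strongly the other way were the potassium channel subunit Kcng3 (-0.86), Fzd3 (-0.85), Mettl2 (-0.84), Ptprn2 (-0.84) and the histamine receptor Hrh3 (-0.84). Kcng3 had a 2.12-fold range, and Fzd3, Mettl2 and Ptprn2 stayed within 1.23 to 1.32-fold.

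Most genes of the mature oligodendrocyte were close to the members, and most genes of its precursors had low r. Of 35 measured genes of a list of other mature oligodendrocyte and myelin genes, 23 had r over 0.8 and 31 over 0.5, with a median of 0.84. The mean of this list had r = 0.98 with that of the members (values for list means are without removal of the group means). The exceptions included the tubulin-binding gene Tppp (-0.22), Pex5l (0.06) and Tmem125 (0.22), and Tppp had a range of 1.16-fold over all arrays. For Tmem125, with a mean signal of 6.45, r was -0.17 over the control and 0.90 over the fructose arrays. Among 13 measured genes of precursors and the lineage the median was 0.07. The lineage transcription factors Olig1 (0.94) and Sox10 (0.93), which mature cells keep, and Enpp6 (0.70), of newly formed oligodendrocytes, were high, while the precursor receptor Pdgfra had 0.12, the precursor proteoglycan Cspg4 -0.02 and Gpr17, of committed precursors, -0.13. Sox5, which acts in precursors, had -0.49. These genes were picked out after their values were seen.

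Other lipid genes had mostly low or negative r over the 13 arrays. For cholesterol synthesis the genes were mostly below 0 over the control arrays and of mixed sign over the fructose arrays. In the list of galactolipid and sulfatide metabolism, 0 of 10 measured genes had r over 0.8 and the median was -0.01, with the ceramide synthase Cers2 highest (0.60) and Galc, which breaks galactosylceramide down, lowest (-0.45). In cholesterol synthesis 15 of 18 had r below 0, with a median of -0.25 and a range from -0.48 (Dhcr7) to 0.22 (Ebp). Over the control arrays alone 15 of 18 were below 0, and over the fructose arrays 10 of 18 were above it and 8 below. Among those above were Tm7sf2 (-0.68 over control, 0.67 over fructose arrays) and Mvk (-0.47 and 0.53), picked after their values were seen. The list mean had r = -0.33 over the control and 0.23 over the fructose arrays, and this difference was not tested. The SD of the list mean was 0.14 over the control and only 0.04 over the fructose arrays. The mean of this list was 9.05 in control replicate 2, its lowest value, where the mean of the 9 myelin genes was 10.05, and 9.48 in control replicate 5, its highest value, where the myelin mean was at its lowest. Control replicate 2 was also 1 of the 2 arrays with the narrowest distributions. Of 15 axonal, nodal and paranodal genes, the axonal adhesion gene Cntn2 (0.88), which oligodendrocytes express too, and the nodal scaffold Ank3 (0.83) had r over 0.8, the neurofilament Nefm had 0.65, and Nrcam had -0.54.

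**Figure D4:**
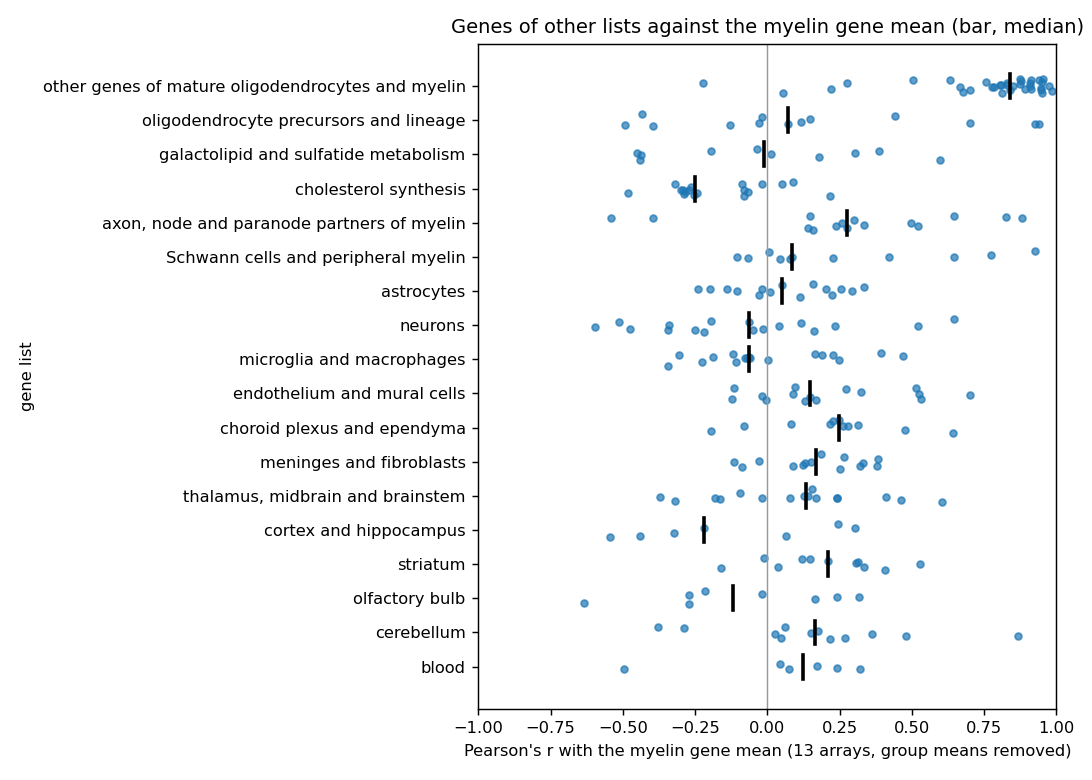
Pearson's r of each gene (points, scattered vertically for sight) with the mean of the 9 myelin genes over 13 arrays after removal of group means (x axis), by gene list (y axis); the bars are list medians. The list of other mature oligodendrocyte genes has a median of 0.84, and the medians of the other lists lie between -0.25 and 0.27.

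Markers of other cell types and regions moved less with the members, with 1 list as an exception by its mean. The mean of the Schwann cell and peripheral myelin list had r = 0.81 with the mean of the 9 genes, 0.80 over the control and 0.84 over the fructose arrays. Of its 11 measured genes Sox10 (0.93) also belongs to the oligodendrocyte lineage list, Pmp22 had 0.77 and Cdh19 0.65, and Prx, Egr2 and Pmp2 had 0.23, 0.04 and 0.08, with mean signals of 7.19, 7.01 and 6.28. The list mean ran from 7.95 to 8.09 in the control and 7.97 to 8.13 in the fructose group, and its part in the result was not tested. For list means the values of r were 0.08 for astrocytes, -0.05 for neurons, -0.04 for microglia and macrophages, 0.31 for endothelium and mural cells, 0.33 for choroid plexus and ependyma, 0.18 for meninges and fibroblasts and -0.06 for blood. For regions they were 0.15 for thalamus, midbrain and brainstem, -0.45 for cortex and hippocampus, 0.32 for striatum, -0.07 for olfactory bulb and 0.17 for cerebellum. The samples were brain without the cerebellum, so the cerebellum list is no measure of that region, and what its signals come from was not tested. Several of these pooled values hide opposite signs over the control and the fructose arrays: 0.52 and -0.33 for cerebellum, 0.30 and -0.25 for thalamus, midbrain and brainstem, 0.39 and -0.22 for meninges, 0.14 and -0.32 for astrocytes, -0.31 and 0.09 for neurons, and -0.31 and 0.31 for blood. These differences between the diets were not tested. The cortex and hippocampus mean was -0.37 in r over the control and -0.65 over the fructose arrays. It ran from 8.47 (control replicate 8) to 9.10 in the control and from 8.73 to 9.31 in the fructose group, with 7 of 15 genes measured, and its part in the spread of the myelin genes was not tested. The neuron list had means of 11.57 to 11.75 with all 17 genes measured. In the cerebellum list Slc6a9, a glycine transporter also found in glia, had r = 0.87 and the other 11 genes lay between -0.38 and 0.48.

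Between the diets, none of the 10 member probe sets passed in limma's test (0 of 15633 probe sets passed, 0%), and each adjusted p was 0.9998. At an unadjusted p under 0.05 there were 0 of 10, where 348 of all probe sets (2.23%) were, and the diet groups overlapped for all 10, where 0.0384% of all probe sets did not overlap. In fructose arrays 6 of the 9 genes had the higher mean and 3 the lower, with a median difference of 0.07, where 54.1% of all probe sets were higher and the median was 0.01. Single arrays moved this count and median: without fructose replicate 1 there were 3 higher and 6 lower (median -0.02), and without control replicate 3 there were 8 higher and 1 lower (median 0.15). Without fructose replicate 7 the median was 0.15, and it was 0.12 without control replicate 2, control replicate 8 or fructose replicate 4. Without control replicates 5, 4 or 7 it was 0.01, 0.02 and 0.04, and without fructose replicate 8 it was 0.04. The same 9 signs held after renewed quantile normalization, after cyclic loess and after centring of the arrays.

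The largest difference was that of Mal, with a control mean of 10.05 ± 0.35 (SD, n = 7) and a fructose mean of 10.25 ± 0.22 (SD, n = 6), a difference of 0.20 ± 0.15 (SE) with a 95% interval from -0.11 to 0.51. Of the fructose arrays 5 of 6 lay above the control mean. The share of the variance of Mal that lay between the diet groups was 11.9%. It was the largest among the 10 probe sets, with Gjb1 next at 8.86% and the second Mbp probe set lowest at 0.58%. Groups that differ only by scatter also give such a share, so it is a description and no measure of an effect of diet. Array weights in the limma fit count arrays with noisier signals less. With them Mal differed by 0.31 ± 0.14 (SE, interval 0.02 to 0.61, unadjusted p = 0.0396 and adjusted p = 0.971). In that fit 8 of the 9 genes had the higher mean in fructose arrays, with a median of 0.18. Of all 15633 probe sets, 759 had an unadjusted p under 0.05 in that fit, and the median difference over all was 0.0026. The share of all probe sets that were higher was not computed for it. Fa2h differed by 0.11 ± 0.13 (SE), Mog by 0.10 ± 0.15, Mobp by 0.09 ± 0.17 and Mag by 0.07 ± 0.15. Mbp was at 11.70 ± 0.33 (SD, n = 7) and 11.76 ± 0.28 (SD, n = 6), and its second probe set differed by 0.02 ± 0.07 (SE). In the other direction Gjb1 differed by -0.08 ± 0.07 (interval -0.23 to 0.07), Cnp by -0.05 ± 0.11 and Ugt8 by -0.04 ± 0.13. As ratios, the 95% intervals of all 10 probe sets lay between 0.80 (the lower end for Ugt8) and 1.43 (the upper end for Mal). Fructose replicate 1, the array with the highest mean of the 9 genes, decided several signs: without it the differences of Mbp, Mag and Mobp were -0.01, -0.02 and -0.02.

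In a further fit, chosen after the data were seen, the mean of the 35 other mature oligodendrocyte genes of each array was added beside the diet. That mean had r = 0.98 with the mean of the members, so narrower intervals of most members were bound to follow. The differences in this fit are relative to those other genes and are not differences in signal between the diets. The residual SD fell to 0.11 for Mbp, from 0.31, to 0.08 for Mag, from 0.30, and to 0.05 for Cnp, from 0.23, and to 0.12 for Gjb1, from 0.13. In this fit 0 of 15633 probe sets passed (0%), and 374 (2.39%) had an unadjusted p under 0.05. Among the members 1 of 10 did: Cnp, with a difference of -0.10 ± 0.04 (SE, interval -0.19 to -0.02, unadjusted p = 0.0212 and adjusted p = 0.99997 from limma). Mal differed by 0.14 ± 0.07 (interval -0.0007 to 0.28), Ugt8 by -0.10 ± 0.06, Gjb1 by -0.09 ± 0.06 and Fa2h by 0.06 ± 0.08. Mog differed by 0.03 ± 0.06 and Mobp by 0.02 ± 0.08. Mbp and Mag differed by 0.0045 and 0.0046, with intervals from -0.13 to 0.14 and from -0.10 to 0.11.

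**Figure D5:**
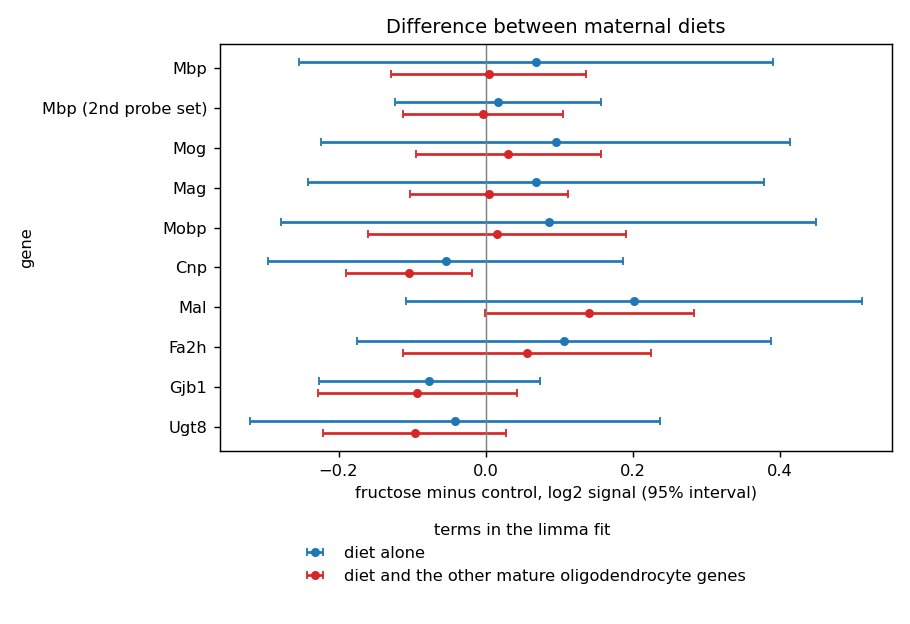
Difference between the maternal diets (fructose minus control, log2 signal) with its 95% interval for each myelin probe set, from the limma fit with diet alone (blue) and with the mean of the other mature oligodendrocyte genes as a further term (red). All intervals of the fit with diet alone include 0, and in the second fit that of Cnp, from -0.19 to -0.02, does not. Differences in the second fit are relative to the other mature oligodendrocyte genes.

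The related gene lists gave the same count between the diets, with 0 genes past the adjusted threshold in either direction. At an unadjusted limma p under 0.05 there were 0 genes too. With no threshold, 54.1% of all 15633 probe sets were higher in fructose arrays. Genes of a list can vary together, so a count of directions is a description. Of the 35 other mature oligodendrocyte genes 24 had a higher and 11 a lower fructose mean, with a median difference of 0.03, and the smallest unadjusted p-values belonged to the small heat shock protein gene Cryab (0.24 ± 0.13, SE), Omg (0.06 ± 0.04), Tmem125 (0.12 ± 0.08) and the deacetylase Sirt2 (0.07 ± 0.05). Of 13 precursor and lineage genes 10 were higher, with a median of 0.05, among them Cspg4 (0.11 ± 0.06), Tnr (0.07 ± 0.06), Sox8 (0.07 ± 0.07) and Sox5 (0.09 ± 0.11). Of 10 galactolipid and sulfatide genes 8 were higher, with a median of 0.03, with Arsa, which breaks sulfatide down, at 0.08 ± 0.05, Degs1 at -0.05 ± 0.06, Kdsr at 0.04 ± 0.06 and Sgms1 at 0.04 ± 0.06. Of 18 cholesterol synthesis genes 8 were higher and 10 lower, with a median of -0.01, and Tm7sf2, Ebp, Lss and Srebf2 differed by -0.06, 0.07, -0.04 and 0.04. Of 15 axonal and nodal genes 14 were higher, with a median of 0.06, among them Kcna1 (0.21 ± 0.12), Nefm (0.22 ± 0.15), Scn1a (0.19 ± 0.18) and Cntn2 (0.07 ± 0.08). These counts moved with the scaling and with single arrays, and the share of all probe sets was not computed for those settings. With the arrays renormalized by quantiles, and likewise by cyclic loess, 10 of the 15 axonal and nodal genes, 20 of the 35 mature oligodendrocyte genes, 6 of the 10 galactolipid genes and 6 of the 18 cholesterol genes were higher. Without control replicate 5, 15 of the 18 cholesterol genes were higher (median 0.02), and without control replicate 2, 4 of 18 (median -0.03). For the mature oligodendrocyte genes 16 of 35 were higher without fructose replicate 1 or without control replicate 7 (medians -0.01 and -0.0045), and 30 of 35 without control replicate 3 (median 0.08). Of the galactolipid genes 5 of 10 were higher without control replicate 2 (median 0.0039).

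In the lists of other cell types and regions 0 genes passed as well. The 2 genes with the smallest unadjusted p were Slc1a2 (0.09) and Atp1b2 (0.13) for astrocytes, Rbfox3 (0.15) and Map2 (0.08) for neurons, Ptprc (-0.11) and Laptm5 (-0.07) for microglia, and Slc2a1 (0.13) and Cdh5 (-0.10) for vessels. They were Egr2 (-0.09) and Scn7a (0.12) for Schwann cells, Cldn2 (-0.21) and Ttr (-0.26) for choroid plexus, Osr1 (-0.12) and Igfbp2 (0.10) for meninges, and Ahsp (-0.42) and S100a8 (-0.05) for blood. Among regions they were Hoxa5 (0.16) and Lhx9 (-0.17) for thalamus and brainstem, Emx2 (0.13) and Cux1 (0.15) for cortex, Isl1 (-0.25) and Rasd2 (0.25) for striatum, Synpr (-0.29) and Th (-0.15) for olfactory bulb, and Fat2 (-0.10) and Zic4 (0.13) for cerebellum. The median differences of these 13 lists lay between -0.06 (olfactory bulb) and 0.10 (cortex and hippocampus). The 2 genes named for a list were picked by p and need not go its way. Of the meninges genes 11 of 14 were higher and 3 lower, and of the vessel genes 10 of 15 were higher and 5 lower. Of the thalamus and brainstem genes 7 of 16 were higher and 9 lower. In fructose replicate 8 Ahsp was at 4.51, with the next fructose array at 5.14.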

How the data were processed

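Total RNA was labelled for whole transcripts and hybridised to Affymetrix arrays, per the labels' protocols. The deposited table held log2 signals of 29214 probe sets in 13 arrays; the tools listed in the submitters' processing notes include RMA and R 3.0.1. The annotation build is not given in the sources used here, detection p-values were not used here, and precision is limited by how many arrays there are.

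The 15633 probe sets with a gene in the platform annotation went into a linear model per probe set (lmFit and eBayes of limma 3.58.1, R 4.3.3, fructose minus control, no filter, Benjamini-Hochberg over all of them, threshold 0.05), and 15310 of them had a single gene. Where a gene had several probe sets, lists and pairs used that of the highest mean. Correlations used Python 3.11.15 with numpy 2.4.6. The scripts were tested on simulated data.

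Named genes were all members, the 10 closest and 5 most opposed probe sets by r, and the 4 (related lists) or 2 (other lists) genes per list whose unadjusted p was smallest. The members and lists were chosen with earlier results of these data known. Other genes named in the text fell outside the rule for named genes. They were picked after their values were seen or stand at an end of a list. Alternatives were other normalizations, array weights, a robust prior, a filter on the 30% dimmest probe sets, single arrays left out, the 2 arrays of narrowest distribution left out and the replicate number as a block.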

Additional observations from a re-analysis of the deposited data

Results flagged for a closer look

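Of 180 groups of arrays examined (each named probe set and each list mean, in control and in fructose arrays), 11 held a value far from the rest of its group by Dixon's test, which flags about 1 in 20 groups by chance. Among the myelin genes this was so in 1 group: the second Mbp probe set was at 9.18 in control replicate 3, with the next control array at 8.95. Opalin was at 9.59 in fructose replicate 1, with the next fructose array at 9.21, and these are the arrays in which the mean of the 9 myelin genes was highest in their groups.

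The other values were spread over several arrays. Tnr was at 9.78 in control replicate 2 (next array 10.02) and Cux1 at 8.72 in control replicate 1 (next 9.03), the arrays with the narrowest distributions. Fructose replicate 8 held Lss at 8.83 (next 8.87), Zic4 at 7.0003 (next 6.75) and Ahsp at 4.51 (next 5.14). The mean of the galactolipid and sulfatide list was 9.17 in fructose replicate 3 (next 9.03), and that of the neuron list 11.57 in fructose replicate 4 (next 11.69). The striatum list mean was 8.86 in control replicate 8 (next 8.48) and 8.70 in fructose replicate 3 (next 8.39).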

How the results depend on the processing

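Over 22 other settings the number of probe sets past the threshold between the diets stayed 0, and so did the number of member probe sets. The median difference of the 9 genes ran from -0.02 (without fructose replicate 1) to 0.18 over 23 settings. Of 220 recomputed member differences 20, from the robust prior and the filter on dim probe sets, equal the reported values by construction, and the 10 with the replicate block equal those without control replicate 5, which has no partner among the 6 shared numbers. Of the 190 others 16 turned sign. With the replicate block Mbp was at -0.0033, and dropping control replicate 5 alone gives the same value. Without the 2 arrays of narrowest distribution the second Mbp probe set was at -0.0077 and Ugt8 at 0.0086, with array weights Cnp was at 0.029 and Ugt8 at 0.064, and with the mean of the other mature oligodendrocyte genes as a covariate the second Mbp probe set was at -0.0034. With single arrays left out, Mbp ran from -0.011 to 0.15, its second probe set from -0.023 to 0.056, Mag from -0.017 to 0.15, Mobp from -0.024 to 0.17, Cnp from -0.12 to 0.0030 and Ugt8 from -0.11 to 0.021. For the other sign changes the cause was not tested. Mog, Mal, Fa2h and Gjb1 kept their signs in all settings. The median correlation of the 36 pairs was 0.86, ran from 0.83 to 0.88 with single arrays left out, and was 0.78 without the 2 arrays farthest from the median of the 9-gene mean, an alternative chosen after seeing the data; the cause was not tested. The median residual SD of the 9 genes was 0.30, and 0.22 with the replicate block. The labels do not say whether the replicate numbers pair the samples. Over all probe sets with a gene, the deviations of same-numbered arrays correlated at -0.34 to 0.19. Of the fructose arrays 0 of 6 correlated best with their own number. These values do not settle whether the numbers pair the samples, so the block is a description.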

Other observations

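Against a line fitted to the mean of the other 8 genes, control replicate 1 held the largest residual of 4 of the 9 genes, with Gjb1 0.26 and Mog 0.14 above the line and Fa2h 0.30 and Mag 0.20 below it on the log2 scale. Its mean of the 9 genes, 9.75, was near the middle of the arrays. Control replicate 1 was also 1 of the 2 arrays with the narrowest distributions, and the part of this in the residuals was not tested. The other array with a narrow distribution, control replicate 2, held the largest residual of none of the 9 genes.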
